A study of Mus musculus with 24 samples.

Results

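The genes of sterol biosynthesis and the genes controlled by the sterol-sensing SREBP factors were followed in the mouse brain shortly after a transient stroke. A list of 27 genes was used, and its members were taken as the probe sets whose platform gene symbol was on the list, with the brightest probe set kept for a gene with several. This gave 24 members out of 19505 genes named on the array, each with 1 probe set. The list held enzymes of the mevalonate steps, of which 6 of 7 were measured, and enzymes from squalene to sterol, of which 10 of 11 were measured. It also held genes of SREBP regulation, with 4 of 5 measured, and genes of cholesterol transport, efflux and turnover, with 4 of 4 measured. Acat2, Tm7sf2 and Srebf1 were not named by the annotation and were not analysed here.

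The tissue came from male C57Bl/6j mice aged 8 to 10 weeks, all of the same strain and with no transgene given in the labels. Occlusion of the middle cerebral artery (MCAO, used to model ischaemic stroke) was done in 8 mice by the intraluminal route for 90 min, followed by 30 min of reperfusion, so that brains were taken 2 h after onset. In the other 4 mice a sham operation was done. Each whole hemisphere, ipsilateral (the side of the surgery) or contralateral, was hybridised to its own Affymetrix array, giving 24 arrays from 12 mice. A whole hemisphere holds tissue inside and outside the territory of the artery, and in such bulk tissue fewer cells of a type and less RNA per cell cannot be told apart. Neuronal markers fitted the labelled tissue, with 6 of 6 above background on all arrays used.

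Values are the deposited log2 probe-set signals, and a difference of 1 is a doubling if that inferred scale holds. On 20 arrays the median correlation with the other arrays was 0.981 to 0.989, whereas both hemispheres of MCAO mouse 3 and of sham mouse 1 gave 0.33 to 0.551. The signals of those 4 arrays were also compressed (SD 1.44 to 1.54, against 2.33 to 2.41 elsewhere), and their negative controls were brighter, with 95th percentiles of 7.41 to 7.61 against 5.17 to 5.74. Both mice were therefore left out of the values below, leaving 7 MCAO and 3 sham mice, and results on all 24 arrays are given beside them. The number of arrays limits the precision. A member counted as above background if its signal was higher than that 95th percentile on the same array. This held for 16 members on all 20 arrays, for 7 members on some, and for Insig2 on none.

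Cholesterol in the brain is made locally, because plasma lipoproteins do not cross the blood-brain barrier, and astrocytes and oligodendrocytes are its main producers. When sterol in the endoplasmic reticulum is low, the escort protein SCAP carries SREBP-2 to the Golgi, where it is cut to release a transcription factor that turns on nearly every enzyme of the pathway. When sterol is high, INSIG proteins hold SCAP back, and oxysterols activate LXR receptors, which turn on the efflux transporters ABCA1 and ABCG1. SREBP binds sterol regulatory elements together with the CCAAT-binding factor NF-Y.

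Promoters from RefSeq (build GRCm38.p6, 250 bases before to 50 bases after the gene start) were found for 19 of the 24 members. The windows of the 3 members with the smallest p between the hemispheres of MCAO mice are shown, because these 3 genes lead the results below. Capitals mark CCAAT in either direction (read as ATTGG on the other strand) and, in Hmgcs1, a match to the sterol regulatory element TCACNCCAC. The Msmo1 window lies at chr8:64733529-64733828 on the minus strand, the Idi1 window at chr13:8885356-8885655 on the plus strand and the Hmgcs1 window at chr13:119690101-119690400 on the plus strand.
Msmo1: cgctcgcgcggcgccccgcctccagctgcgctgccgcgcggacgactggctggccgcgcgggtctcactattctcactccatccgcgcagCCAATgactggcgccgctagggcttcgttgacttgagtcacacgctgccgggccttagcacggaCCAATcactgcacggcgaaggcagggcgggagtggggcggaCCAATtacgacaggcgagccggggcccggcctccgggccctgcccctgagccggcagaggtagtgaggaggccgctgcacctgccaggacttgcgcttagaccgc
Idi1: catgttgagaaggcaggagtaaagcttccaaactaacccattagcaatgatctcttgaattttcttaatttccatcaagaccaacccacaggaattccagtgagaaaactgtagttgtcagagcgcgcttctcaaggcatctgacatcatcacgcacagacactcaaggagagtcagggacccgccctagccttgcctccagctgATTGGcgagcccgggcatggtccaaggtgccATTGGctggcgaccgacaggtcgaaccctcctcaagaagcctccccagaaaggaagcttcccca
Hmgcs1: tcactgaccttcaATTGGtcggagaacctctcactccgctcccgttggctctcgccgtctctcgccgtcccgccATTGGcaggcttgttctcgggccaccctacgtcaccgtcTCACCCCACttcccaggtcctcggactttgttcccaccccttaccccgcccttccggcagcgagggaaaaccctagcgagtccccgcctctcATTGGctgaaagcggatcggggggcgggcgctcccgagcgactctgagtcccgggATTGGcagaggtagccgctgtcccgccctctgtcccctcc

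CCAAT, searched on both strands, stood in the window of 17 of the 19 members with a promoter, or 89.5% of them, against 41.1% of the 27025 genes in the table. The window of Hmgcs1 held 4 such boxes, that of Msmo1 held 3 and that of Idi1 held 2. Counted by window, since a gene can have several, it stood in 17 of the 25 windows of members, or 68%, against 37.4% of all 32851 windows of the same length. TCACNCCAC was found in 1 member, Hmgcs1, or 5.26% of members, against 1.44% of genes. The E-box CACGTG, a different motif that SREBP can also bind, was found in 6 members, or 31.6%, against 8.09% of genes. These counts describe letters in the windows and not binding.

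The first question was whether the occluded hemisphere differed from the opposite one in the same mouse. After MCAO, 15 of the 16 measured enzymes had a higher mean in the ipsilateral than in the contralateral hemisphere, with a median difference over the enzymes of 0.12 on the log2 scale. Over all 24 members the median difference was 0.11 and 18 were positive, against a median of -0.0048 and 48.4% positive over all 22206 probe sets tested. The differences were small, and 0 of 24 members passed limma's test at an adjusted p under 0.05 in either direction, where 0.126% of all probe sets were called higher and 0.00901% lower. At an unadjusted p under 0.05, 4 members were higher, Msmo1, Idi1, Hmgcs1 and Stard4, beside 3.18% of all probe sets, and 0 were lower, beside 3.92%. The microglial and endothelial marker lists had medians of like size between the same hemispheres. Medians were 0.03 for astrocyte, 0.03 for oligodendrocyte, -0.01 for neuronal and -0.19 for choroid plexus markers. The 2 oligodendrocyte precursor markers measured had a median of 0.21. The 5 microglial markers had a median difference of 0.10, with 4 positive. Of these, Cx3cr1 was at 0.19 ± 0.08 (SE) and higher in 7 of 7 mice, a pattern that 1.22% of all probe sets showed. In sham mice the microglial median was 0.14, with 5 of 5 positive. The 4 endothelial markers had a median of 0.13 in MCAO mice, with 3 positive. Summed on the linear scale, the microglial markers ran from 470 to 597 in ipsilateral and from 436 to 595 in contralateral hemispheres, and the endothelial markers from 462 to 558 in ipsilateral and from 405 to 565 in contralateral hemispheres, both with overlap. The part of these cells in the sterol gene differences was not tested.

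Msmo1 encodes the methylsterol monooxygenase that removes methyl groups from sterol intermediates. Its signal in MCAO mice 1, 2, 4, 5, 6, 7 and 8 was 7.24, 6.96, 7.03, 6.89, 7.42, 7.46 and 7.42 in the ipsilateral hemisphere, against 7.25, 6.95, 6.45, 6.45, 6.96, 6.80 and 6.64 in the contralateral hemisphere. Ipsilateral values were higher in 6 of 7 mice, in mouse 2 by only 0.01, and mouse 1 was close to level. The difference was 0.42 ± 0.12 (SE), a 1.33-fold change, with a limma adjusted p of 0.385.

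Idi1 encodes the isomerase that makes dimethylallyl diphosphate, the starter unit of isoprenoid chains. In the same order of mice its signal was 6.15, 6.40, 6.85, 6.67, 6.49, 6.62 and 6.84 ipsilaterally, against 6.02, 5.99, 5.75, 6.08, 6.37, 6.32 and 6.53 contralaterally. Idi1 was the only member higher on the occluded side in 7 of 7 mice, a pattern that 1.22% of all probe sets showed. The difference was 0.42 ± 0.13 (SE), or 1.34-fold, with a limma adjusted p of 0.466. Mouse 4 had the greatest gap, at 1.10, and mouse 6 the smallest, at 0.12.

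Hmgcs1 encodes the cytosolic HMG-CoA synthase of the mevalonate route. Its signal was 9.87, 10.05, 9.88, 9.66, 9.76, 9.84 and 9.88 ipsilaterally, against 9.70, 9.74, 9.29, 9.49, 9.80, 9.64 and 9.37 contralaterally. All mice but mouse 6 were higher on the occluded side, and the 2 sets of arrays overlapped. The difference was 0.27 ± 0.09 (SE), or 1.21-fold, with a limma adjusted p of 0.5.

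Stard4 encodes a soluble carrier that moves cholesterol between membranes, and it was the only transport gene with a positive difference. Its signal was 5.61, 5.45, 5.96, 6.09, 6.12, 6.23 and 5.88 ipsilaterally, against 5.68, 5.73, 5.52, 5.33, 5.32, 5.61 and 5.91 contralaterally. Ipsilateral signals in mice 4, 5, 6 and 7 were 0.44, 0.76, 0.80 and 0.62 above the contralateral ones, while mice 1, 2 and 8 had differences of -0.06, -0.28 and -0.03. The mice thus split into 4 with a clear gap and 3 without. The mean difference was 0.32 ± 0.13 (SE), with a limma adjusted p of 0.660. The probe set lay near background, above it on 7 of 7 ipsilateral and 4 of 7 contralateral arrays of MCAO mice.

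**Figure D1:**
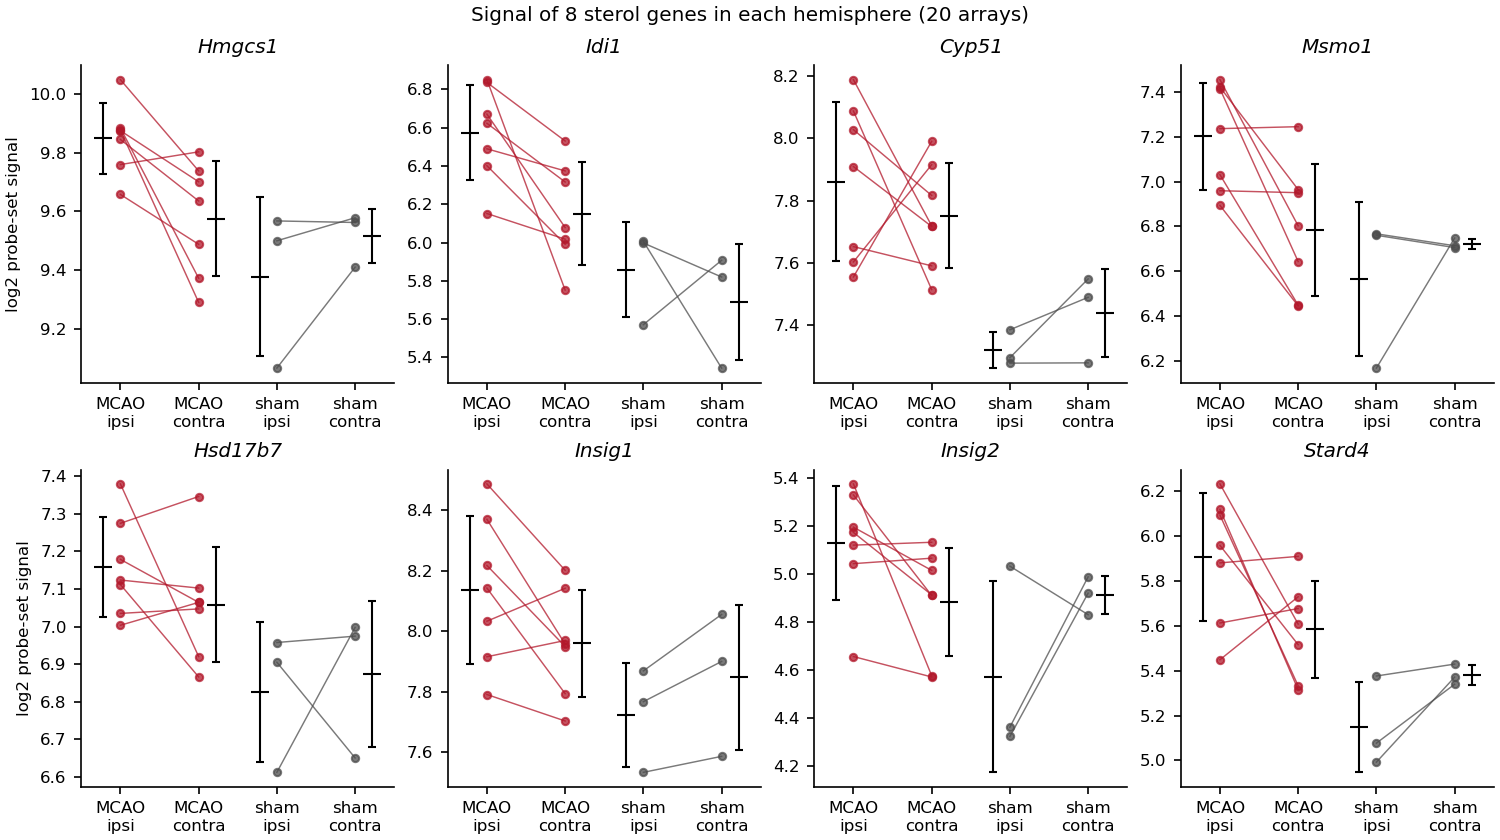
Log2 probe-set signal of 8 sterol genes on the 20 arrays, with MCAO ipsilateral, MCAO contralateral, sham ipsilateral and sham contralateral hemispheres from left to right in each panel. Each point is 1 array, lines join the hemispheres of 1 mouse, and bars give the mean ± SD (n = 7 MCAO and 3 sham mice), with a separate axis range for each gene. The lines of all 7 MCAO mice slope down from left to right for Idi1, and the MCAO ipsilateral points lie above all sham ipsilateral points for Hmgcs1, Idi1, Cyp51, Msmo1, Hsd17b7 and Stard4.

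The other 4 measured mevalonate enzymes had within-mouse differences of 0.05 to 0.14, none past an unadjusted p of 0.05. They were Mvk, the kinase that phosphorylates mevalonate, at 0.09, and Pmvk, which phosphorylates the product of Mvk, at 0.13. The others were the decarboxylase Mvd at 0.05 and Fdps, the farnesyl diphosphate synthase, at 0.14. Past the branch point at farnesyl diphosphate, Fdft1, the squalene synthase, differed by 0.01 ± 0.08 and Lss, the lanosterol synthase, by 0.09 ± 0.09 (SE). Sqle, the squalene epoxidase that is a rate-limiting step of this arm, differed by 0.15 ± 0.10 and was higher in 6 of 7 mice. Cyp51, which demethylates lanosterol, differed by 0.11 ± 0.12, with mice 1 and 2 at -0.43 and -0.31 and the other 5 between 0.06 and 0.57. Of the late enzymes, Nsdhl, a sterol dehydrogenase that also decarboxylates, differed by 0.12 and Hsd17b7, a keto-sterol reductase, by 0.10. Ebp, a sterol isomerase, differed by 0.15 and Sc5d, a sterol desaturase, by 0.17. Dhcr7, the reductase of the last step of the Kandutsch-Russell route, was the only enzyme with a negative difference, -0.15 ± 0.10 (SE), limma adjusted p 0.831, and it was lower in 4 of 7 mice.

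Among the regulators, the 2 INSIG genes had positive differences and the factor and its escort had differences near 0. Insig1, itself a direct SREBP target, had signals of 8.22, 7.79, 8.14, 7.92, 8.03, 8.37 and 8.49 ipsilaterally in mice 1, 2, 4, 5, 6, 7 and 8, against 7.95, 7.70, 7.79, 7.97, 8.14, 7.96 and 8.20 contralaterally. It was higher on the occluded side in 5 of 7 mice, and the difference was 0.18 ± 0.08 (SE) with a limma adjusted p of 0.732. Insig2 had 5.12, 5.17, 5.37, 4.66, 5.19, 5.33 and 5.04 ipsilaterally, against 5.13, 4.91, 4.58, 4.57, 5.01, 4.91 and 5.06 contralaterally, also higher in 5 of 7 mice. It differed by 0.24 ± 0.12 (SE), limma adjusted p 0.753, but was not well above background on any array, so no fold is given. Srebf2, which encodes SREBP-2, averaged 10.07 on both sides and differed by -0.00 ± 0.07 (SE). Scap differed by -0.02 ± 0.10 (SE). The efflux transporters Abca1 and Abcg1 differed by -0.04 ± 0.11 and -0.09 ± 0.11, and Cyp46a1, the neuronal hydroxylase that turns brain cholesterol into an exportable oxysterol, by -0.08 ± 0.08 (SE).

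In single MCAO mice the median side difference over the 24 members was -0.01, 0.10, 0.25, 0.06, 0.09, 0.14 and 0.11 in mice 1, 2, 4, 5, 6, 7 and 8, a mean of 0.11 ± 0.08 (SD, n = 7). The medians of mice 2 to 8 were positive, and mouse 4 had the highest, with 21 of 24 members higher ipsilaterally. In sham mice 2, 3 and 4 the medians were -0.12, 0.04 and 0.02, a mean of -0.02 ± 0.09 (SD, n = 3). The set-apart MCAO mouse 3 had 0.21 and the set-apart sham mouse 1 had 0.37. Without MCAO mouse 4 the median of the fitted differences was 0.07 in place of 0.11. On all 24 arrays that median was 0.10, and 1 member, Idi1, was higher at an unadjusted p under 0.05, beside 1.74% of all probe sets, with a difference of 0.47 ± 0.14 (SE) and a limma adjusted p of 0.919. On those arrays 13 of the 16 enzymes had a positive difference, with Mvd and Cyp51 at -0.0069 and -0.020 beside Dhcr7. With each array centred on its median, 7 members in place of 4 were higher at an unadjusted p under 0.05, beside 4.25% in place of 3.18% of all probe sets. When limma's prior variance was allowed a trend with signal and made robust, 2 members passed, Msmo1 with an adjusted p of 0.0406 and Hmgcs1 with an adjusted p of 0.0494. Under that fit 0.32% of all probe sets were called higher, in place of 0.126%, and 84 in either direction, in place of 30. Over all alternatives the limma adjusted p ran from 0.0406 to 0.94 for Msmo1 and from 0.0494 to 0.94 for Hmgcs1.

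**Figure D2:**
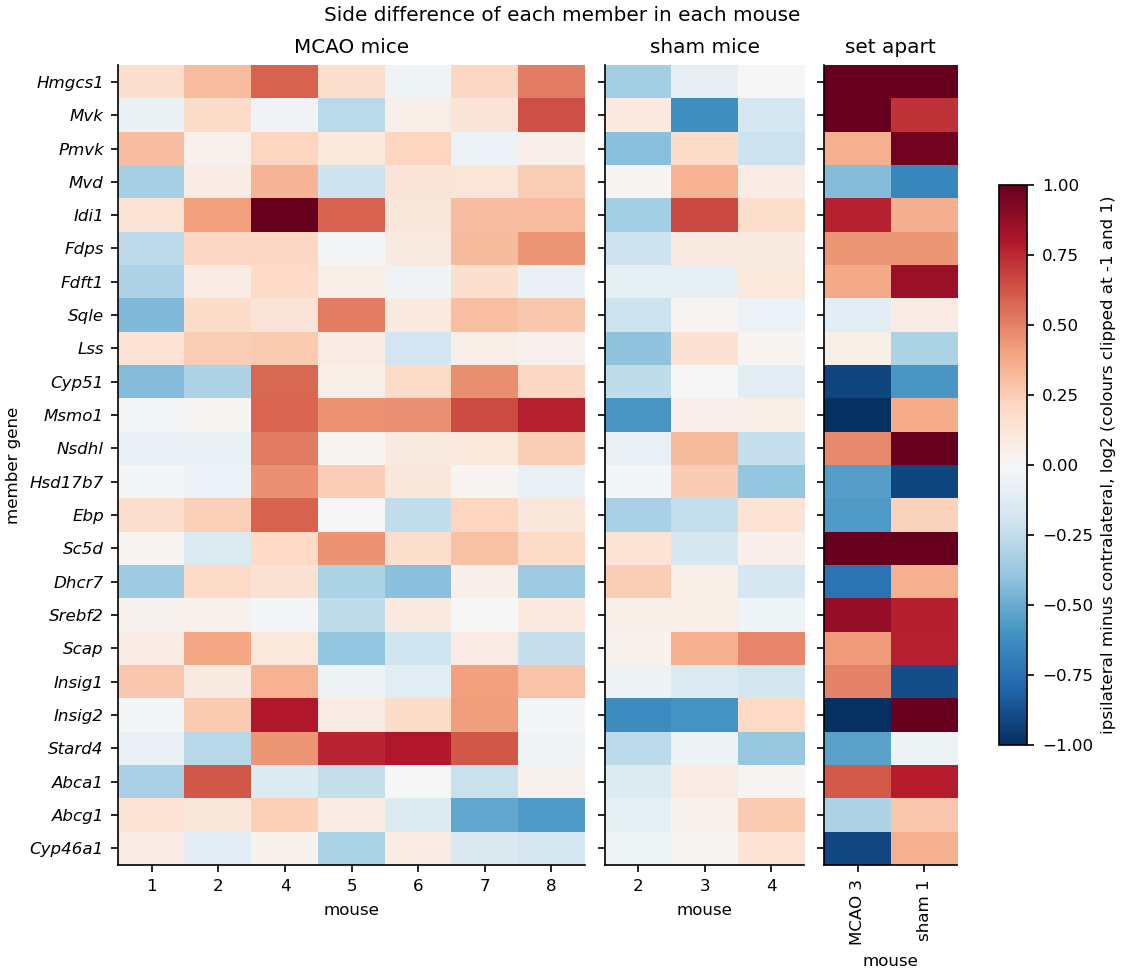
Ipsilateral minus contralateral log2 signal of each of the 24 members (rows) in each mouse (columns), with red for higher and blue for lower ipsilateral signal and colours clipped at -1 and 1. The 7 MCAO mice are at the left, the 3 sham mice in the middle and the 2 mice set apart at the right. Red prevails in the columns of MCAO mice 4 and 7, the sham mice hold 6, 15 and 14 red rows, and the set-apart columns hold strong colours of both signs.

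In sham mice the same comparison gave 0 of 24 members called by limma, and 0% of all probe sets were called in either direction. At an unadjusted p under 0.05, 0 members were higher and 0 lower, against 2.8% and 2.7% of all probe sets. The median over members was -0.04. Msmo1 had signals of 6.17, 6.77 and 6.76 in the ipsilateral and 6.75, 6.71 and 6.71 in the contralateral hemispheres of sham mice 2, 3 and 4, so that 1 low ipsilateral array, that of mouse 2, set the difference of -0.16 ± 0.18 (SE), which was 0.054 without that mouse. Hmgcs1 had 9.07, 9.50 and 9.57 ipsilaterally, against 9.41, 9.58 and 9.56 contralaterally, again with the ipsilateral array of mouse 2 the lowest. Of the 20 arrays, that array had the lowest median correlation with the others, 0.981. It also had the lowest mean signal of the positive controls, 6.51. The part of array quality in its low values was not tested. Idi1 had 5.57, 6.01 and 6.00 ipsilaterally, against 5.91, 5.34 and 5.82 contralaterally, with mouse 3 as the one with a large positive gap. On all 24 arrays the median over members was 0.11 in place of -0.04, and 1 member was higher at an unadjusted p under 0.05, beside 2.68% of all probe sets.

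The side difference was then compared between MCAO and sham mice in the same fit. Its median over members was 0.17, 17 of 24 were positive, and 0 passed limma's adjusted test, where 0% of all probe sets did. At an unadjusted p under 0.05, 4 members had a greater side difference after MCAO than after sham surgery, beside 2.8% of all probe sets, and 0 had a smaller one, beside 3.11%. The 4 were Msmo1 at 0.57 ± 0.21, Insig2 at 0.58 ± 0.22, Hmgcs1 at 0.41 ± 0.17 and Stard4 at 0.55 ± 0.24 (SE), with limma adjusted p-values of 0.742 to 0.818. Of these, Insig2 was above background on 0 of 20 arrays and Stard4 on 0 of 6 sham arrays, so that these 2 values rest on signals not above background, and no fold is given for them. For Idi1 the value was 0.26 ± 0.24 (SE), with a limma adjusted p of 0.94, and it was 0.0036 without sham mouse 2 and 0.50 without sham mouse 3. Msmo1 stood at 0.36 without sham mouse 2. In 0 of the 24 members did the side differences of MCAO and sham mice separate without overlap, against 1.07% of all probe sets in the higher direction. The count of 4 fell to 0 without sham mouse 2, beside 3.13% of all probe sets, where the median was 0.11, while without sham mouse 3 the median was 0.26. On all 24 arrays the count was 1, beside 2.64% of all probe sets, the median was 0.063, and Hmgcs1 stood at -0.084. On the 20 arrays the 5 oligodendrocyte markers had a median of 0.19, with 5 positive, and the 2 precursor markers a median of 0.30. In sham mice alone the oligodendrocyte markers had a median side difference of -0.16, with 5 negative. Medians of the other lists were 0.09 for endothelial, 0.01 for neuronal, -0.04 for microglial, -0.05 for astrocyte and -0.19 for choroid plexus markers. The part of these cells in the sterol gene values was not tested.

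MCAO ipsilateral hemispheres were compared next with sham ipsilateral ones, and here the median over members was 0.29, against 0.01 over all probe sets, and 18 of 24 were positive. At an unadjusted p under 0.05, 13 of 24 members were higher after MCAO and 0 lower, beside 3.85% and 3.63% of all probe sets. They comprised 10 of the 16 enzymes, namely Hmgcs1, Mvk, Pmvk, Idi1, Fdps, Sqle, Cyp51, Msmo1, Nsdhl and Hsd17b7, together with Insig1, Insig2 and Stard4. After adjustment 0 of 24 members passed, where 0.126% of all probe sets were called higher and 0.0225% lower by limma. In 6 members, Hmgcs1, Idi1, Cyp51, Msmo1, Hsd17b7 and Stard4, every MCAO array lay above every sham array, which held for 1.4% of all probe sets.

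Stard4 had signals of 5.45, 5.96 and 6.23 as the lowest, median and highest of 7 MCAO ipsilateral hemispheres, against 5.08, 5.38 and 4.99 in the 3 sham ones. The groups did not overlap, but the gap between the nearest arrays was small. The difference was 0.76 ± 0.17 (SE), with a limma adjusted p of 0.193. It was above background on 7 of 7 MCAO and 0 of 3 sham ipsilateral arrays. With each sham value set no lower than the background of its array, the lower bound of the fold between the means was 1.26. That bound makes no allowance for the spread between mice. Idi1 had a lowest, median and highest signal of 6.15, 6.62 and 6.85 after MCAO, against 5.57, 6.01 and 6.00 after sham surgery. All 7 MCAO values exceeded the sham values, by 0.72 ± 0.17 on average (SE), or 1.64-fold, with a limma adjusted p of 0.193. It was above background on 7 of 7 MCAO and 2 of 3 sham ipsilateral arrays.

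Msmo1 had 6.89, 7.24 and 7.46 as the lowest, median and highest MCAO signals, against 6.17, 6.77 and 6.76 in sham mice. Its difference was 0.64 ± 0.17 (SE), or 1.56-fold, with a limma adjusted p of 0.323. Cyp51 had 7.55, 7.91 and 8.19 after MCAO, against 7.30, 7.28 and 7.39 in sham mice. The sham arrays of Cyp51 were close together (SD 0.06, n = 3) and the MCAO arrays spread more widely (SD 0.26, n = 7), and the difference was 0.54 ± 0.16 (SE), or 1.45-fold, with a limma adjusted p of 0.382. Hmgcs1 had 9.66, 9.87 and 10.05 after MCAO, against 9.07, 9.50 and 9.57 in sham mice, a difference of 0.47 ± 0.14 (SE) or 1.39-fold with a limma adjusted p of 0.382. Hsd17b7 had 7.00, 7.12 and 7.38 after MCAO, against 6.96, 6.91 and 6.61 in sham mice. Its groups were separated by only a narrow gap, and the difference was 0.33 ± 0.13 (SE), or 1.26-fold, with a limma adjusted p of 0.595.

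Insig1 averaged 8.14 ± 0.25 after MCAO (SD, n = 7) and 7.72 ± 0.17 in sham mice (SD, n = 3), a difference of 0.41 ± 0.16 (SE) or 1.33-fold. Its groups overlapped, since the lowest MCAO array, at 7.79, was below the highest sham array, at 7.87. Insig2 averaged 5.13 ± 0.24 after MCAO and 4.57 ± 0.40 in sham mice, again overlapping, and was not well above background on any of these arrays. Mvk differed by 0.41 ± 0.18, Fdps by 0.37 ± 0.15, Sqle by 0.37 ± 0.15, Pmvk by 0.32 ± 0.14 and Nsdhl by 0.26 ± 0.12 (SE), each with overlapping groups. Mvk was above background on 6 of 7 MCAO and 0 of 3 sham ipsilateral arrays, with a limma adjusted p of 0.635. With each sham value set no lower than the background of its array, the fold between the means was only 1.03. Members at the other end were Dhcr7 at -0.22 ± 0.15, Abca1 at -0.18 ± 0.17, Scap at -0.13 ± 0.17 and Cyp46a1 at -0.08 ± 0.15, while Srebf2 was at 0.01 ± 0.15 (SE). The count of 13 was 8 without MCAO mouse 8, beside 3.52% of all probe sets, and 8 without sham mouse 2, beside 4.14%, and the median was 0.21 without sham mouse 2. Without that mouse Fdps stood at 0.20, Sqle at 0.21 and Pmvk at 0.15. On all 24 arrays the count was 1, beside 0.612% of all probe sets, and the median was 0.49. The added arrays of MCAO mouse 3 and sham mouse 1 had compressed signals, and marker medians moved with them too. They went from 0.03 to 0.29 for neurons, 0.05 to 0.32 for astrocytes and -0.12 to -0.25 for choroid plexus.

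**Figure D3:**
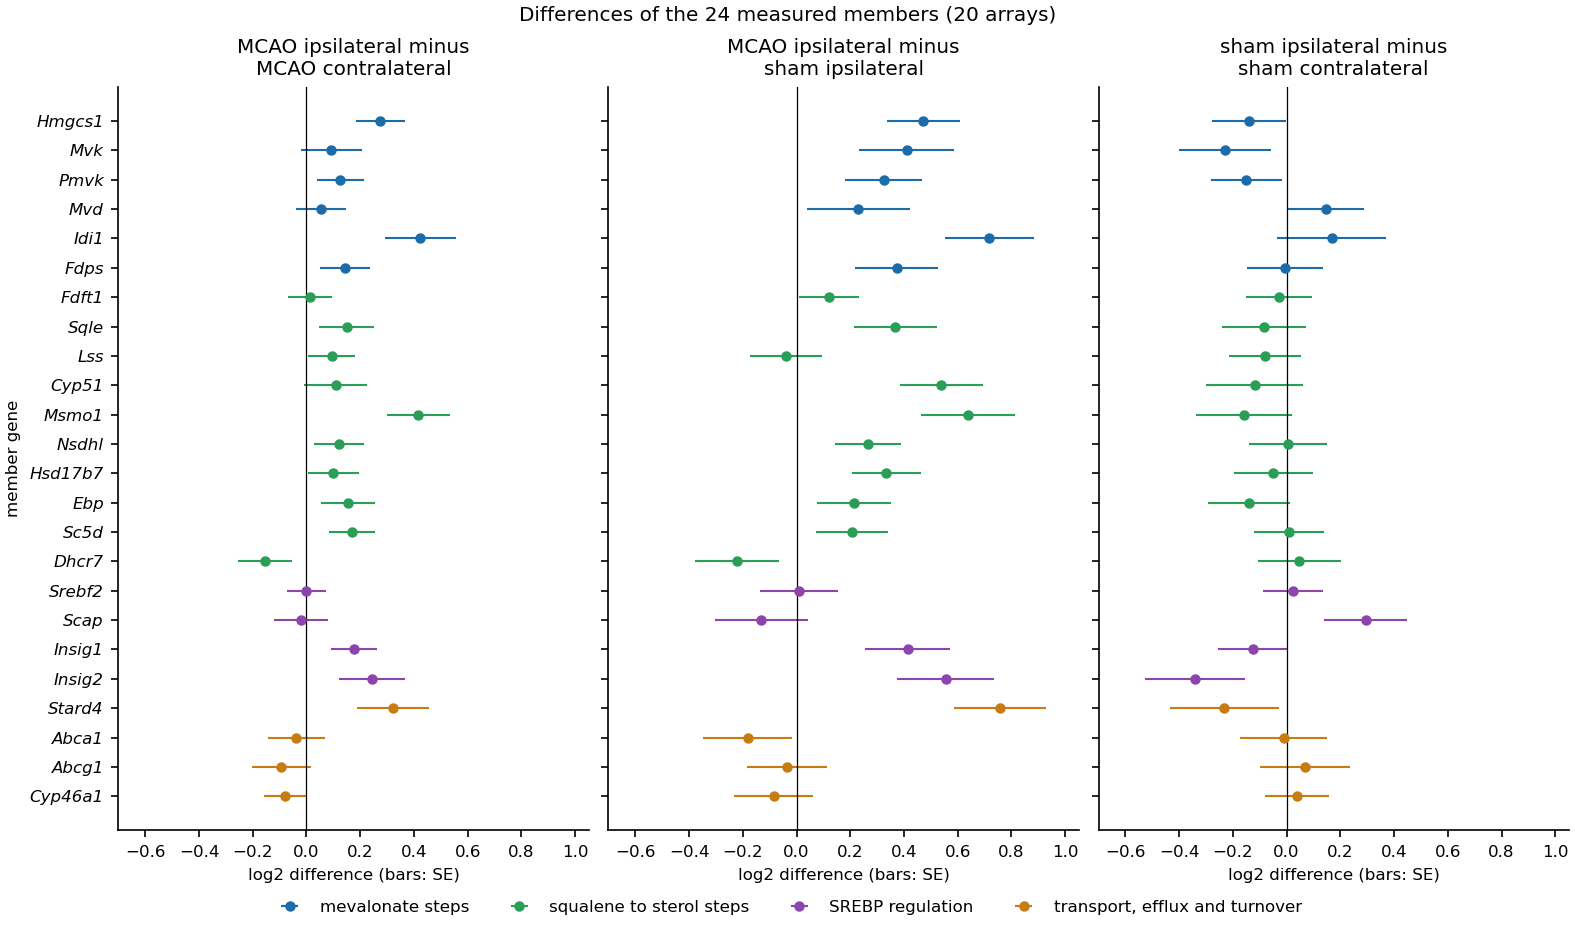
Log2 difference of each measured member (points) with its standard error (bars) from limma on 20 arrays, for MCAO ipsilateral minus MCAO contralateral, MCAO ipsilateral minus sham ipsilateral and sham ipsilateral minus sham contralateral hemispheres, coloured by role. In the middle panel Stard4 at 0.76, Idi1 at 0.72 and Msmo1 at 0.64 lie farthest to the right, and Dhcr7 at -0.22 lies farthest to the left.

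Some markers of other cells differed in the same comparison. Of 4 endothelial markers, 4 were positive between the ipsilateral hemispheres, with Cldn5 at 0.89 ± 0.23 (SE, limma adjusted p 0.285) and Flt1 at 0.32 ± 0.12 (SE, limma adjusted p 0.599). Summed on the linear scale, the 4 endothelial markers ran from 462 to 558 in MCAO and from 339 to 416 in sham ipsilateral hemispheres, with no overlap. Taken singly, 0 of the 4 had groups without overlap, beside 1.4% of all probe sets higher without overlap. The 6 astrocyte markers summed to 3067 to 3693 in MCAO and 2909 to 3373 in sham hemispheres, and the 5 oligodendrocyte markers measured to 3502 to 4135 in MCAO and 3528 to 3761 in sham hemispheres, both with overlap. Of the 2 oligodendrocyte precursor markers measured, Sox10 differed by 0.32 ± 0.13 and Cspg4 by -0.04 ± 0.18 between the ipsilateral hemispheres (SE). Between the sides in MCAO mice Sox10 differed by 0.34 ± 0.10 and Cspg4 by 0.09 ± 0.10 (SE). The 5 microglial markers had a median of 0.21 between the ipsilateral hemispheres, with 4 positive, beside a median of 0.23 for the endothelial markers, and summed to 470 to 597 in MCAO and 415 to 537 in sham hemispheres, with overlap. The part of these cells in the sterol gene differences was not tested. None of the 3 choroid plexus markers was above background on all arrays of any group, and their summed level ran from 33 to 44 in MCAO and from 35 to 58 in sham ipsilateral hemispheres.

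Between the contralateral hemispheres of MCAO and sham mice, 0 of 24 members passed limma's adjusted test, as did 0% of all probe sets. At an unadjusted p under 0.05, 3 members were higher after MCAO, beside 2.52% of all probe sets, and 0 were lower, beside 2.07%. Idi1 had a lowest, median and highest signal of 5.75, 6.08 and 6.53 in MCAO, against 5.91, 5.34 and 5.82 in sham contralateral hemispheres, a difference of 0.46 ± 0.18 (SE) with overlapping groups. Cyp51 had 7.51, 7.72 and 7.99, against 7.55, 7.28 and 7.49, a difference of 0.31 ± 0.13 (SE), and the groups overlapped. Mvd differed by 0.32 ± 0.15 (SE). Mvd was above background on 6 of 7 MCAO and 1 of 3 sham contralateral arrays and Idi1 on 7 of 7 MCAO and 2 of 3 sham ones, so these differences rest in part on sham signals at background. Msmo1 differed by 0.06 ± 0.17 and Hmgcs1 by 0.06 ± 0.14 (SE). The median over members was 0.08. Idi1 stood at 0.29 without sham mouse 3. The count of 3 was 0 without that mouse, beside 2.23% of all probe sets. It was 1 without sham mouse 4 or without MCAO mouse 1, 2 or 8. With no mouse left out, 2.52% of all probe sets were higher at that threshold. Some markers of other cells had positive differences on this side too, where 52.5% of all probe sets did. All 4 endothelial markers were positive, with Cldn5 at 0.68 ± 0.22 (SE). Of them, 2 were at an unadjusted p under 0.05, beside 2.52% of all probe sets. In 1 of the 4 every MCAO array lay above every sham array, as in 173 of all 22206 probe sets. The endothelial markers summed to 405 to 565 in MCAO and 327 to 385 in sham contralateral hemispheres. All 5 microglial markers were positive, with a median of 0.25, but 0 were at an unadjusted p under 0.05 and 0 had non-overlapping groups. They summed to 436 to 595 in MCAO and 397 to 432 in sham hemispheres. Neither sum overlapped between the groups. The smallest limma adjusted p in either list was 0.99987. Astrocyte markers had a median of 0.16, with 5 of 6 positive, and oligodendrocyte markers one of -0.09, with 3 of 5 negative. The part of these cells in the sterol gene values was not tested. On all 24 arrays the count was 0, beside 0.207% of all probe sets, and the median was 0.44. With the compressed arrays added, marker medians moved too. They went from -0.01 to 0.77 for neurons, 0.16 to 0.55 for astrocytes and 0.07 to -0.04 for choroid plexus.

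Set side by side, the named members had different patterns over the 4 groups. Msmo1 averaged 7.20 in MCAO ipsilateral, 6.79 in MCAO contralateral, 6.57 in sham ipsilateral and 6.72 in sham contralateral hemispheres, so that the occluded hemisphere had the highest mean of the 4 groups. Hmgcs1 had the same order, with means of 9.85, 9.58, 9.38 and 9.52. Cyp51 averaged 7.86 and 7.75 in the ipsilateral and contralateral hemispheres of MCAO mice, against 7.32 and 7.44 in those of sham mice, so that its means lay closer between the sides than between MCAO and sham mice. Idi1 averaged 6.58 and 6.15 in MCAO mice, against 5.86 and 5.69 in sham mice, with the higher mean ipsilaterally in both surgery groups and after MCAO on both sides. These comparisons share arrays, and whether the patterns of Cyp51 and Msmo1 differ from each other was not tested.

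**Figure D4:**
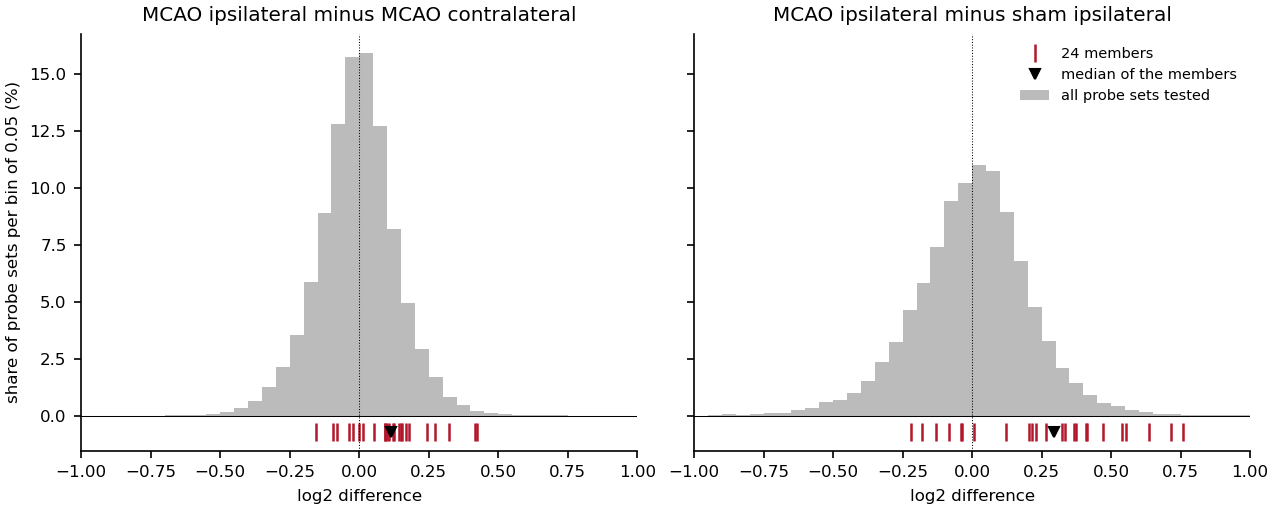
Distribution of the log2 differences of all 22206 probe sets tested (grey bars, percent of probe sets per bin of 0.05) with the 24 members as red ticks and their median as a triangle, for MCAO ipsilateral minus contralateral (left) and MCAO ipsilateral minus sham ipsilateral hemispheres (right). The median of the members stands at 0.11 on the left and at 0.29 on the right, beside grey distributions centred near 0. The axis ends at -1 and 1, with 27 probe sets above 1 on the left, and 41 above 1 and 18 below -1 on the right.

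Other lipid genes of related function were examined beside the members. Of the SREBP-1 lipogenic genes, which make fatty acids, 12 of 13 were measured, and their median side difference in MCAO mice was 0.02 with 0 called by limma. Elovl6, a fatty acid elongase, was the only one of them at an unadjusted p under 0.05, beside 3.18% of all probe sets higher. It was at 0.25 ± 0.10 (SE), limma adjusted p 0.661, followed by the elongase Elovl5 at 0.16 ± 0.11 (SE). Of the genes of SREBP processing and sterol-regulated degradation, 6 of 9 were measured, with a median of -0.05 and 0 at an unadjusted p under 0.05. The smallest p-values among them were those of Mbtps1, a protease that cuts SREBP, at -0.16 ± 0.09 and Erlin2 at -0.13 ± 0.10 (SE). Of the cholesterol handling genes, 14 of 16 were measured, with a median of 0.03. Lipa, the lysosomal acid lipase that frees cholesterol from its esters, differed by 0.24 ± 0.10 (SE), with a limma adjusted p of 0.639. It was higher in 7 of 7 mice, as were 1.22% of all probe sets. Scarb1, a lipoprotein receptor, differed by -0.24 ± 0.12 (SE) and was higher in 1 of 7 mice. Of the non-sterol isoprenoid genes, 6 of 7 were measured, with a median of 0.02, and Fnta and Coq2 had the smallest p-values, at 0.05 ± 0.10 and 0.03 ± 0.10 (SE). Between MCAO and sham ipsilateral hemispheres the medians of these lists were 0.05, -0.01, 0.03 and 0.06, in the same order. Me1 (malic enzyme) at 0.34 ± 0.14 and Lipa at 0.34 ± 0.14 (SE) were the only ones at an unadjusted p under 0.05. Of all probe sets, 3.85% were higher at that threshold.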

How the data were processed

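RNA of both hemispheres of 8 MCAO and 4 sham mice was measured on 24 whole-transcript Affymetrix arrays. The authors deposited log2 signals per probe set, made, per the submitters' processing notes, with Affymetrix Expression Console. Not given in the sources used here are its version, the normalization and the annotation build. That the scale is log2 was inferred from the values and the tool. Of 29129 probe sets, 6923 array controls were left out and 22206 tested with no filter on signal. Of these, 19572 had 1 gene symbol and 2634 were unnamed here. The symbols of all 19572 were the same in the RefSeq gene table (GRCm38.p6). No pair of arrays held identical values.

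Groups came from the sample labels. Within-mouse comparisons and their interaction were fitted with limma 3.58.1 (lmFit, eBayes) in R 4.3.3 with a fixed effect for each mouse, because its 2 hemispheres are paired by the labels. Their deviations from the group means correlated at 0.11 to 0.31, against a median of -0.02 for different mice. Comparisons between mice used the arrays of 1 side without a block, and mice of the same number in both surgery groups are different animals. The Benjamini-Hochberg adjustment covered all probe sets tested, and 0.05 was the threshold. Mice with an array whose median correlation with the others was under 0.9 were left out of the fits reported first. The members, the related gene lists, the markers and this choice of arrays were made with earlier results of these data known. Full values are given for the 6 members with the smallest p between the hemispheres of MCAO mice and for members with an unadjusted p under 0.05 and non-overlapping groups between mice. From each related list the 2 genes with the smallest p are named. The fits were tested on simulated data. Promoters were searched with Python 3.11.15, and figures drawn with matplotlib 3.10.9.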

Additional observations from a re-analysis of the deposited data

Results flagged for a closer look

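In MCAO mice, 3 of the 24 members had 1 mouse whose side difference (ipsilateral minus contralateral, log2) lay far from those of the other mice by Dixon's criterion. Chance alone flags about 1 group of values in 20, and 3 of the 73 groups examined were flagged. The flags are thus no more frequent than chance gives, and they are only described here. Sqle, the squalene epoxidase, had a difference of -0.442 in MCAO mouse 1, against 0.099 to 0.51 in the other 6 mice. Srebf2 had a difference of -0.254 in MCAO mouse 5, against -0.02 to 0.098 in the others. Abca1, the efflux transporter, had a difference of 0.623 in MCAO mouse 2, against -0.323 to 0.043 in the others. The 3 genes were flagged in 3 different mice.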

How the results depend on the processing

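With the hemispheres treated as unpaired (no replicate block), 29 probe sets and 0 members were called between the sides in MCAO mice. At an unadjusted p under 0.05, 4 members were higher, as with the block, beside 2.27% of all probe sets. With mouse number as a block between surgery groups, although the numbers mark different animals whose deviations correlated at -0.02 to 0.13, the members higher at an unadjusted p under 0.05 were 4 ipsilaterally, beside 2.57% of all probe sets, and 0 contralaterally, beside 1.86%, and the median over members was 0.33 ipsilaterally and 0.0068 contralaterally. On all 24 arrays the counts of such members were 1 within MCAO mice, 1 within sham mice, 1 for the difference of sides, 1 between ipsilateral and 0 between contralateral hemispheres. The shares of all probe sets were 1.74%, 2.68%, 2.64%, 0.612% and 0.207%, in the same order. The medians over members were then 0.11 in sham mice, 0.063 for the difference of sides, 0.49 ipsilaterally and 0.44 contralaterally. Those of the neuronal markers were 0.60, -0.48, 0.29 and 0.77, in the same order. Called probe sets were 19 within MCAO mice and 1 between ipsilateral hemispheres. Trend and robust eBayes called 84 probe sets and 2 members within MCAO mice, 5 probe sets for the difference of sides, 50 ipsilaterally and 1 contralaterally. At an unadjusted p under 0.05 it gave 1 member higher in sham mice, beside 2.3% of all probe sets. For the difference of sides 1 member was lower, beside 2.81%. Array weights called 64, 50 and 1 probe sets within MCAO mice, ipsilaterally and contralaterally. Without dim probe sets 66, 2 and 1 were called within MCAO mice, for the difference of sides and contralaterally. At an unadjusted p under 0.05, 7 members were then higher within MCAO mice, beside 4.59% of those probe sets. Median centring gave the same count of 7. The fit of MCAO mice alone called 19. Averaging the probe sets of a gene changed no member, since each had 1.

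Leaving out 1 mouse at a time gave 18 to 27 called probe sets within MCAO mice, 0 to 1 within sham mice, 0 to 8 for the difference of sides and 24 to 46 ipsilaterally. Called members numbered 0 in each of these fits. At an unadjusted p under 0.05, members higher numbered 3 to 6 within MCAO mice, beside 2.6% to 3.63% of all probe sets. Within sham mice they numbered 0 to 1, beside 2.66% to 3.45%. They numbered 0 to 5 for the difference of sides, 8 to 14 ipsilaterally and 0 to 3 contralaterally. With no mouse left out, 2.8%, 3.85% and 2.52% of all probe sets were higher, in the same order. Members lower at that threshold numbered 0 to 1 in sham mice, for the difference of sides and ipsilaterally. With no mouse left out, 2.7%, 3.11% and 3.63% of all probe sets were lower, in the same order. The medians ran from 0.11 to 0.26 for the difference of sides and from 0.21 to 0.34 ipsilaterally. The causes were not tested. Signal near background limits Insig2, Stard4 and Mvk most.

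Of 1211 values of single genes under the alternatives, 43 changed sign and 2 passed the threshold. Within MCAO mice, all 24 arrays gave Mvd -0.0069, Cyp51 -0.020, Srebf2 0.11, Scap 0.034 and Abca1 0.043. Median centring gave Srebf2 0.023 and Scap 0.0017, array weights Srebf2 0.019 and Scap 0.021, and quantile normalization Fdft1 -0.0024. Without 1 mouse the ranges were Fdft1 -0.016 to 0.068, Srebf2 -0.017 to 0.042, Scap -0.090 to 0.039 and Abca1 -0.15 to 0.0099. In sham mice all 24 arrays gave Hmgcs1 0.47 and Insig2 0.029, and the ranges without 1 mouse were Idi1 -0.079 to 0.42, Msmo1 -0.26 to 0.054 and Hsd17b7 -0.20 to 0.12. For the difference of sides, all 24 arrays gave Hmgcs1 -0.084, and the range without 1 mouse was Hsd17b7 -0.019 to 0.30. Ipsilaterally, all 24 arrays gave Lss 0.19, Scap 0.22, Abcg1 0.13 and Cyp46a1 0.48. Number as a block gave Dhcr7 0.016, Srebf2 -0.027, Abca1 0.21 and Abcg1 0.10, and median centring Srebf2 -0.0078. Without 1 mouse the ranges were Lss -0.095 to 0.0074, Srebf2 -0.071 to 0.085 and Abcg1 -0.20 to 0.067.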
